A study of Homo sapiens with 15 samples.

Results

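KM-H2 is a cell line established from classical Hodgkin lymphoma, and its gene expression was set against that of the other Hodgkin lines measured beside it. The 2 KM-H2 arrays were picked by their titles from 15 arrays of 9 cell lines. The comparison group was the mean of 4 Hodgkin lines of origin. These were L428, L1236 and HDLM2, with 2 arrays each, and L540, whose 1 array was averaged with the 1 array of L540Cy. All 10 of these arrays carry classical Hodgkin lymphoma as the disease, and their labels name no treatment, genotype or time. The other 5 arrays came from Namalwa, SU-DHL-4 and Reh, which are not Hodgkin lines, and they entered the choice of the probe set for each gene and, through the duplicates of Namalwa and Reh, the estimate of the spread. From background, L428, L1236 and KM-H2 are known as B cell derived, HDLM2 and L540 as T cell derived, and L540Cy as a subline of L540. Each line stands for a single tumour, so a difference described here belongs to KM-H2 against these lines.

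Classical Hodgkin lymphoma is recognised by Hodgkin and Reed-Sternberg cells, large tumour cells that in most cases descend from B cells and have lost much of the B cell programme. They carry CD30 on their surface, depend on NF-kB and JAK-STAT signalling, and secrete chemokines and cytokines that draw other immune cells around them. Cell lines from such tumours keep these traits to unequal degrees.

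The deposited values are log2 signals made with RMA, a method that corrects background, equalises arrays and summarises the probes of a probe set. The array medians lay between 5.50 and 5.57. The SD of a single array, estimated from the difference between duplicates over all genes, was 0.21 log2 for KM-H2. It was 0.17 to 0.26 for the other duplicated Hodgkin lines, 0.37 for Namalwa and 0.44 for Reh. A gene was called when limma gave an adjusted p (Benjamini-Hochberg over all 19735 genes) under 0.05, and a difference is given in log2 units as KM-H2 minus the other Hodgkin lines. In KM-H2, 2789 genes were called higher (14.1% of those tested) and 2559 lower (13.0%). Because a difference from a mean can come from 1 of the lines, a gene was said to stand apart when it was called, differed by at least 1 log2 unit, and had both KM-H2 arrays outside all 8 arrays of the other Hodgkin lines. Above them stood 1071 genes (5.43%), and 641 genes (3.25%) stood below. The counts of each gene list below are to be read against these shares of all genes.

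These p-values measure only the spread between duplicate arrays of a line. With each line counted as 1 replicate, 233 genes were called higher (1.18%) and 25 lower (0.127%), and 231 and 24 of these also stood apart. The p of that fit is quoted below as the p over lines, also adjusted over all genes. KM-H2 is 1 sample in it, so its spread comes from the other lines alone, KM-H2 is assumed to vary like them, and the p does not measure how far KM-H2 itself would vary. Without KM-H2 replicate 1 the calls were 1865 higher and 1438 lower, and without KM-H2 replicate 2 they were 1791 and 1526. Of the genes standing apart above, 27.4% had all 8 other arrays under a log2 signal of 6, and 39.6% of those standing apart below had both KM-H2 arrays under it. RMA is known to compress differences at such low signals. The brightest probe set stands for a gene, and over the mean of all its probe sets 78 of the 266 called genes named here had a difference smaller by over 1.5 times; the text gives that value for the genes it touches most.

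The 4 marker genes listed for KM-H2 were high in it and low in the other lines. They were chosen with these values known, so they are described with no test. MMP12, a macrophage elastase, read 12.45 and 12.33 in KM-H2, or 12.39 ± 0.08 (SD, n = 2), while the other Hodgkin arrays read 3.39 to 3.82 with a median of 3.60. The groups did not overlap, and the difference was 8.78 (SE 0.14). MAGEA4, a germ cell antigen of the MAGE family, read 12.15 and 12.52 against 3.28 to 4.05. CR2, the complement receptor CD21 of mature B cells, read 11.90 and 12.46 against 3.94 to 4.44, a difference of 7.98. It was 4.23 over the mean of its 2 probe sets. CD3D, a chain of the T cell receptor complex, was lower than these but still apart, at 8.75 and 8.44 against 5.29 to 5.94, a difference of 2.94 (SE 0.28).

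**Figure D1:**
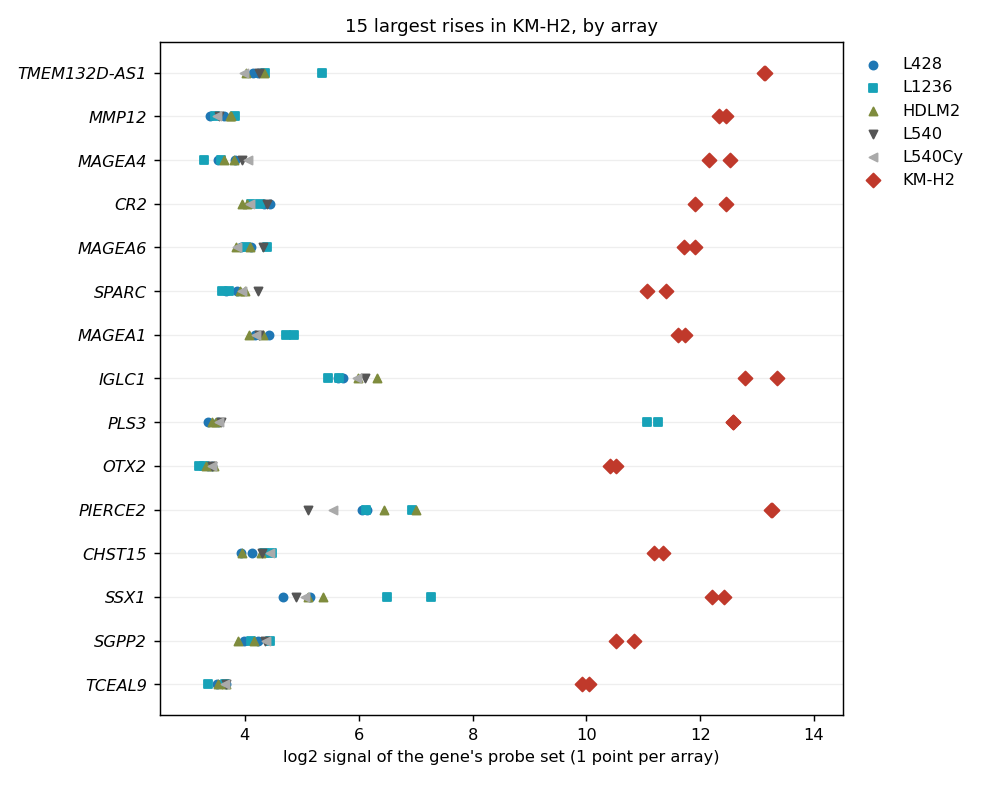
The log2 signal of the 15 genes with the largest rises among genes standing apart, with 1 point per array and a symbol for each line. The KM-H2 points lie from 9.92 to 13.35, and the other Hodgkin arrays mostly lie below 7, except L1236 for PLS3 and 1 array each of L1236 and HDLM2 above it for SSX1 and PIERCE2.

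The 15 largest rises spanned several functions. They held 4 germ cell antigens (MAGEA4, MAGEA6, MAGEA1 and SSX1), the secreted matrix protein SPARC, the brain and eye homeobox factor OTX2, the actin-bundling protein PLS3, the sulfotransferase CHST15 and the sphingosine phosphatase SGPP2. An antisense transcript, TMEM132D-AS1, rose from 3.98 to 5.35 in the other lines to 13.11 and 13.13 in KM-H2. PIERCE2, a component of ciliary microtubules, read 13.26 and 13.25 against 5.11 to 7.01. TCEAL9, a gene of the X chromosome, read 9.92 and 10.05 against 3.34 to 3.68. OTX2 read 10.53 and 10.41 against 3.20 to 3.46. PLS3 was the exception among these genes, since L1236 was also high at 11.06 and 11.26, while the remaining 6 arrays read 3.34 to 3.59. Its p over lines was 0.788, and that of SSX1 was 0.077. The difference of CHST15 was 7.03, and 4.17 over the mean of its 2 probe sets.

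Cancer-testis antigens are proteins of germ cells that many tumours produce again. Of 32 measured, 16 were called higher and 3 lower, and 14 stood apart above and 1 below. That is 43.8% above, against 5.43% of all genes. The median difference over the list was 0.37, against -0.05 over all genes, and 0.57 without KM-H2 replicate 1. MAGEA4, which heads this list, is one of the marker genes listed for the line. All 14 genes standing apart above lie on the X chromosome, which holds 27 of the 32 measured. Of all 696 measured genes of that chromosome, 68 (9.77%) stood apart above, these 14 included. Outside the list, 54 of its 669 measured genes stood apart above. Of the 14, 10 were also called over lines, and 14 stood apart above whichever array was left out. The count called lower was 1 without KM-H2 replicate 2 or without L1236.

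The stretches of 250 bases before the start of 4 of these genes are shown because methylation of CpG dinucleotides there is known to hold germ cell genes silent in other tissues. They are RefSeq sequences of GRCh38.p14, written 5′ to 3′ on the strand of the gene, with each CpG in capitals. MAGEA4 (chrX:151912224-151912473, plus strand) holds 6 CpG, MAGEA6 (chrX:152769690-152769939, minus strand) holds 15, MAGEC1 (chrX:141903644-141903893, plus strand) holds 11 and MAGEB1 (chrX:30243481-30243730, plus strand) holds 1.
MAGEA4: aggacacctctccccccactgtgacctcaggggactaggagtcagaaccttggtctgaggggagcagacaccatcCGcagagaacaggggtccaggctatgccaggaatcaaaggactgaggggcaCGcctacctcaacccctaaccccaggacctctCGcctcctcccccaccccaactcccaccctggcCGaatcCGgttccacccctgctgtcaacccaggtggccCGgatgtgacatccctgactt
MAGEA6: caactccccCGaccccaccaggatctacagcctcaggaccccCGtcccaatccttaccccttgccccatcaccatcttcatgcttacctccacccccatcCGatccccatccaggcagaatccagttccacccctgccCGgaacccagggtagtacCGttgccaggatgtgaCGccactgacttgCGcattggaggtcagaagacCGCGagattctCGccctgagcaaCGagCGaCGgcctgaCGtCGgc
MAGEC1: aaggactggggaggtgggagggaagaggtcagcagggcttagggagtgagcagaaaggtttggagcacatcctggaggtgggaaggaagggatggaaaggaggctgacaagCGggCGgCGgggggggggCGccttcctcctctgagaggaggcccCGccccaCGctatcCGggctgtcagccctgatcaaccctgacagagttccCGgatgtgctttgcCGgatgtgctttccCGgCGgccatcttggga
MAGEB1: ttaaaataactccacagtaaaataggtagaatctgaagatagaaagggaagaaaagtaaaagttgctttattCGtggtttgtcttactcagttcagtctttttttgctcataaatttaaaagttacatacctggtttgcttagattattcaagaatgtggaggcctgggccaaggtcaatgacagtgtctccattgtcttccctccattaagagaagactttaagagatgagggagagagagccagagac
A promoter was found for 10 of the 14 genes, with 1 to 15 CpG and a median of 6. Over all 27305 promoters of the table the median was 11, and the quartiles were 3 and 23. Methylation itself was not measured in these samples.

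Among the Hodgkin lines, the MAGE-A genes standing apart were high in KM-H2 alone. MAGEA6, whose probes may also read its near-identical copy MAGEA3, read 11.72 and 11.91 against 3.84 to 4.39. MAGEA1 read 11.60 and 11.73 against 4.08 to 4.86, and MAGEA10 read 11.15 and 10.63 against 4.66 to 5.32. MAGEC1 read 9.90 and 9.84 against 3.77 to 4.02, a difference of 5.99 (SE 0.12, adjusted p = 1.4e-09). Of the genes printed above, MAGEB1 followed another pattern, and MAGEB2 shared it. MAGEB2 read 12.41 and 11.94 in KM-H2, 10.63 to 11.18 in L428 and L1236, and 3.78 to 3.98 in HDLM2, L540 and L540Cy. MAGEB1 read 11.23 and 11.45 in KM-H2, 9.26 to 10.69 in L428 and L1236, and 4.03 to 4.12 in the other 3. Their p over lines was 0.905 and 0.883. SSX1, a transcriptional repressor of the testis, read 12.42 and 12.21, with L1236 next at 6.49 and 7.28.

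The antigens CTAG2, PASD1 and SSX3 stood apart by 5.02, 4.38 and 4.31 and were called over lines. MAGEC2 (1.77) and PAGE4 (1.66) stood apart by less, and MAGEC2 fell to 0.86 over the mean of its 2 probe sets. TEX14, needed for the bridges between germ cells, was the member standing below, at 4.33 and 4.58 against 4.64 to 7.62. Among 9 MAGE-D and other MAGE genes, which most tissues express, 5 were called higher and 1 lower, and 3 stood apart above. The count called higher was 3 without either KM-H2 array or without L428 replicate 1. MAGED2, for which KM-H2 read 10.09 and 10.03 and the others 8.01 to 9.20, is an example. MAGEH1 (2.65) and MAGEE1 (2.26) were the others, and MAGEH1 was at 1.74 without L540 and L540Cy. None of the 3 was called over lines.

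**Figure D2:**
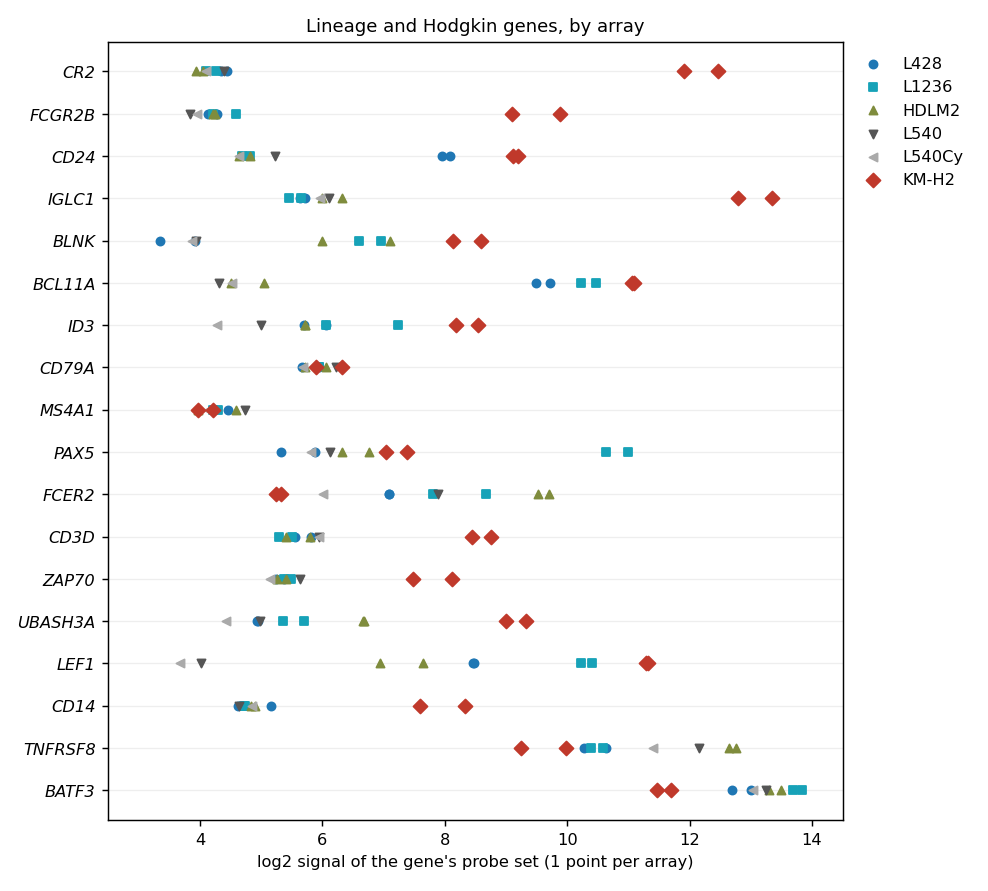
The log2 signal of B cell, T cell, myeloid and Hodgkin genes, with 1 point per array and a symbol for each line. KM-H2 lies apart at the right for CR2, FCGR2B, IGLC1, CD3D, ZAP70 and CD14 and at the left for FCER2, TNFRSF8 and BATF3, and overlaps or adjoins the other lines for CD79A, MS4A1 and PAX5.

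The Hodgkin identity of KM-H2 was checked on 6 markers, whose mean signal was 10.24 and 10.39 in KM-H2, 10.08 to 12.22 in the other Hodgkin arrays and 5.50 to 6.72 in the non-Hodgkin arrays. TNFRSF8, which encodes CD30, read 9.24 and 9.98 against 10.27 to 12.77, and so stood apart below by 1.74 (SE 0.22, adjusted p = 0.000222, p over lines 0.851). BATF3, an AP-1 partner that Hodgkin cells express, read 11.47 and 11.70 against 12.70 to 13.83, a fall of 1.71. CCL17, the chemokine TARC of Hodgkin cells, was called lower by 3.09, but KM-H2 (8.88 and 8.57) lay above L540 and L540Cy (6.20 and 7.34). Without those 2 arrays its difference was -4.77. IRF4, FUT4 and FSCN1 were not called, with differences of -0.13, -0.33 and 0.52.

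Core B cell markers did not separate KM-H2 from the other Hodgkin lines. The mean of CD79A, CD79B, MS4A1, PAX5 and CD22 was 5.92 and 5.89 in KM-H2, 5.57 to 6.68 in the other Hodgkin arrays and 9.71 to 11.50 in the non-Hodgkin arrays. None of the 5 was called. CD79A, a signalling chain of the B cell receptor, read 6.33 and 5.90 against 5.67 to 6.22, and MS4A1, the surface antigen CD20, read 3.96 and 4.21 against 3.96 to 4.74. PAX5, the factor that commits cells to the B lineage, read 7.38 and 7.04, between L1236 (10.99 and 10.63) and the other 6 arrays (5.32 to 6.77). Without L1236 its difference was 1.17, with a call.

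Other B cell genes did stand apart. Of 31 B cell surface antigens, 6 were called higher (19.4% against 14.1% of all genes) and 1 lower (3.23% against 13.0%). Standing apart were 3 above (9.68% against 5.43%) and 1 below (3.23% against 3.25%). CR2, which is among those above, is a marker gene listed for the line and chosen with its values known. The count called lower was 4 without either Reh array. Besides CR2, FCGR2B, the inhibitory Fc receptor of B cells, read 9.88 and 9.10 against 3.83 to 4.59 (p over lines 0.0041). CD24, a mucin-like antigen of early B cells, read 9.19 and 9.11, with L428 next at 8.08 and 7.95 and the rest at 4.63 to 5.23. FCER2, the IgE receptor CD23, went the other way, at 5.24 and 5.32 against a median of 7.85 in the other Hodgkin arrays, all of which were higher.

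Immunoglobulin lambda sequences were also high. IGLC1 read 13.35 and 12.79 in KM-H2 against 5.46 to 6.31, but its 9 probe sets did not move alike: 2 rose by over 1 log2 unit, and the mean of all gave a difference of 1.47 in place of 7.21. IGLV1-44 read 11.80 and 9.94 against 6.26 to 6.65, and its difference of 4.37 was 0.61 over the mean of 6 probe sets. Immunoglobulin genes are near copies of one another, so which lambda gene these probes read is uncertain. IGKC, the kappa constant region, read 10.61 and 9.31 against 6.78 to 8.93 and was not called (adjusted p = 0.0868), though it was without either Reh array.

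Of 26 genes of B cell receptor signalling, 4 were called higher (15.4%) and 4 lower (15.4%), near the 14.1% and 13.0% of all genes. Standing apart above were 3 (11.5% against 5.43%). Without either KM-H2 array both called counts were 2, and 2 were called higher without HDLM2 or without L1236 replicate 2. BLNK, the adaptor that links the receptor to phospholipase C, read 8.59 and 8.13 against 3.35 to 7.10. The adaptor STAP1 read 7.28 in both KM-H2 arrays against 3.91 to 4.33. Its call was lost over the mean of its 2 probe sets, without either KM-H2 array, without HDLM2 and without replicate 2 of L428 or of L1236, and it was called over lines (adjusted p = 0.00391). VAV2, an exchange factor, stood apart by 1.85, and by 0.74 without L540 and L540Cy, where it read 3.49 and 3.51.

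Among 32 B lineage transcription factors, 5 were called higher and 9 lower, and 3 stood apart above and 6 below, or 18.8% below against 3.25% of all genes. Without HDLM2, 5 stood apart above. BCL11A, a transcriptional repressor that early B cell development needs, read 11.09 and 11.07. It lay above L428 and L1236 (9.49 to 10.46) and far above HDLM2, L540 and L540Cy (4.31 to 5.05). ID3, an antagonist of E proteins, read 8.55 and 8.19 against 4.28 to 7.23. AFF3 stood apart by 3.06, a call that was lost over the mean of its 6 probe sets. Genes of the plasma cell programme were among those below. XBP1, a driver of antibody secretion, read 8.77 and 9.32 against 10.17 to 10.84. PRDM1, the plasma cell repressor BLIMP1, read 6.88 and 6.92 against 7.30 to 8.91, and its call was lost without either KM-H2 array and with the replicate number as a block (adjusted p = 0.0518). IKZF1 fell by 1.11 and IKZF2 by 3.08, both zinc finger factors of lymphocytes, and MEF2C by 1.49. IKZF2 was at -1.28 over the mean of its 3 probe sets, and IKZF1 was not called with its most variable one. MSC, an inhibitor of E2A known from Hodgkin cells, fell by 1.30, and by 0.86 without HDLM2. The call of MSC was lost without KM-H2 replicate 1. None of these 9 genes was called over lines.

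T cell genes divided. Of 27 T cell markers, 7 were called higher (25.9% against 14.1% of all genes) and 5 lower (18.5% against 13.0%). Standing apart were 5 above (18.5% against 5.43%) and 2 below (7.41% against 3.25%). CD3D, which is among those above, is a marker gene listed for the line and chosen with its values known. Without KM-H2 replicate 2 there were 5 below, and without L428 there were 4. The mean of the list was 6.70 and 6.61 in KM-H2, inside the 6.02 to 6.79 of the other Hodgkin arrays, and 14 of its members were under a log2 signal of 6 in both KM-H2 arrays, CD3E, CD3G, CD2, CD28, CD8A and LCK among them. ZAP70, the kinase below the T cell receptor, read 8.13 and 7.47 against 5.15 to 5.63 and was called over lines (adjusted p = 0.00629). UBASH3A, a phosphatase that restrains T cell receptor signals, read 9.17 ± 0.23 (SD, n = 2) against 4.43 to 6.69. LEF1, a WNT-responsive factor of lymphocyte precursors, read 11.33 and 11.29, with L1236 next at 10.22 and 10.41 and L540 and L540Cy at 4.02 and 3.67. BCL11B, a T lineage factor, stood apart by 1.77, just above L428 (6.83 and 6.77, against 6.94 and 7.46 in KM-H2). LEF1 was at 2.08 over the mean of its probe sets and BCL11B at 0.77. CCR4 and IL7R stood below, at -2.13 and -1.66, and the latter fell by 0.85 without L540 and L540Cy.

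Markers of other cell types were mostly low. The shares called higher were 0% for NK and cytotoxic, 8.82% for myeloid and 7.14% for stromal and epithelial markers, against 14.1% of all genes. Called lower were 22.2%, 14.7% and 14.3%, against 13.0%. The mean of 18 NK and cytotoxic markers was 5.34 and 5.33 in KM-H2 and 5.29 to 6.46 in the other Hodgkin arrays, and 15 members were under 6 in both KM-H2 arrays. No member was called higher and 4 were called lower, 2 of them without L540 and L540Cy. GZMB, for example, read 10.15 and 13.86 in L540 and L540Cy and 4.28 to 5.30 in KM-H2 and the other lines, and was not called without that pair. The mean of 34 myeloid markers was 5.42 and 5.34, inside the range of 5.28 to 5.61 of the other lines, and 24 members, among them LYZ, CD163, MPO and CEBPA, were under 6. There 3 members were called higher and 5 lower, 2 of the latter without KM-H2 replicate 1 and 3 without L540 and L540Cy. The exception that stood apart was CD14, the endotoxin coreceptor of monocytes, at 7.59 and 8.32 against 4.63 to 5.16. CSF1R, the macrophage growth factor receptor, was called higher by 1.18, but KM-H2 (7.90 and 8.59) overlapped L540 and L540Cy (8.15 and 8.53), and the call was lost without KM-H2 replicate 2. Of 28 stromal and epithelial markers 2 were called higher and 4 lower, 2 of the latter without either KM-H2 array or without HDLM2, and 16 were under 6, COL1A2, COL3A1, FN1 and EPCAM among them. The list mean was 5.92 and 5.87, inside 5.50 to 5.99. The 2 called higher were SPARC and COL6A3, both of which stood apart.

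Genes of the matrix and of proteolysis gave single large rises. SPARC read 11.40 and 11.07 against 3.60 to 4.24. COL6A3, a chain of collagen VI, read 10.55 and 10.81 against 4.19 to 5.92, with HDLM2 highest among the others (p over lines 0.0551). Of 37 matrix proteases and their inhibitors, 7 were called higher and 2 lower, and 2 stood apart above: MMP12 and ADAMDEC1. With 5.41% this is near the 5.43% of all genes, and it was 4 without KM-H2 replicate 2, L1236, HDLM2, or L540 and L540Cy. MMP12 is a marker gene listed for the line and chosen with its values known. ADAMDEC1, a disintegrin-like protease of macrophages and dendritic cells, read 9.56 and 9.66 against 3.59 to 4.72. PLAT, the tissue plasminogen activator, read 10.72 and 10.94, the same as HDLM2 at 10.98 and 10.96, and so was called but did not stand apart.

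Of 27 serpins and cathepsins, 7 were called higher (25.9% against 14.1% of all genes) and 8 lower (29.6% against 13.0%). In each direction 4 stood apart (14.8%, against 5.43% above and 3.25% below). Without KM-H2 replicate 2 there were 5 called lower. SERPINF1, the secreted factor PEDF, read 9.80 and 9.75 against 5.26 to 5.74 (p over lines 0.00209). SERPINE2, an inhibitor of thrombin, read 11.04 and 10.81, with L428 next, the higher of its arrays at 8.73, and its difference of 5.06 was 2.62 over the mean of its 2 probe sets. CSTA, an intracellular cathepsin inhibitor, read 10.83 and 11.13, just above L1236 at 10.27 and 10.80 and far above the other 6 arrays at 3.84 to 4.20. SERPINH1, a collagen chaperone, stood apart by 1.17 and was not called without KM-H2 replicate 1. The lysosomal proteases CTSZ and CTSO fell by 3.54 and 2.79, and CTSZ by 1.88 over the mean of its 2 probe sets. SERPINB8 fell by 1.67 and SERPINB1 by 1.48, and by 1.10 and 0.92 without L540 and L540Cy.

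MHC class II molecules present peptides to CD4 T cells, under control of the transactivator CIITA. Of 18 measured genes of this system, 12 were called higher and 0 lower, and 4 stood apart above. That is 66.7% called higher, against 14.1% of all genes, and the median difference was 1.09. That median was 0.62 over the mean of all probe sets and 0.63 without L1236. None was called over lines. CIITA read 8.73 and 8.62 against 6.54 to 8.24, a difference of 1.28 (SE 0.16, adjusted p = 0.000184, p over lines 0.743), and of 0.34 over the mean of its 3 probe sets. LGMN, a protease that trims antigens, read 10.29 and 10.04 against 5.90 to 7.70.

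For most structural class II genes the highest other line was HDLM2. HLA-DRA read 13.63 and 13.37 in KM-H2, 13.93 and 13.98 in HDLM2, 13.19 and 12.98 in L428, 12.13 and 11.91 in L540 and L540Cy, and 10.90 and 10.69 in L1236. Its call was lost without L1236 or without KM-H2 replicate 1. HLA-DPB1 read 12.91 and 12.67, between HDLM2 (13.19 and 13.08) and L428 (11.99 and 11.79), and was not called without L1236. HLA-DRB1 was higher by 1.15, and by 0.69 without L1236. Without HDLM2, 9 of the 18 genes stood apart above. HLA-DRB4 (3.33, and 1.27 over the mean of 3 probe sets) and HLA-DQA1 (4.70) stood apart too, but class II genes have many alleles and close copies, and their probe sets disagreed. HLA-DQA1 read 12.83 and 12.93 against 12.78 and 12.72 in L428, and its difference turned to -0.35 over the mean of its 3 probe sets and -3.50 for the most variable one. Over the means of probe sets, 2 genes stood apart.

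Class II promoters carry a Y box, a site with an inverted CCAAT, here searched as CTGATTGG on both strands, and 2 promoters that hold it are shown with the match in capitals. They are RefSeq sequences of GRCh38.p14, 250 bases before the start, 5′ to 3′. HLA-DRB1 lies at chr6:32589849-32590098 and HLA-DMA at chr6:32953098-32953347, both on the minus strand.
HLA-DRB1: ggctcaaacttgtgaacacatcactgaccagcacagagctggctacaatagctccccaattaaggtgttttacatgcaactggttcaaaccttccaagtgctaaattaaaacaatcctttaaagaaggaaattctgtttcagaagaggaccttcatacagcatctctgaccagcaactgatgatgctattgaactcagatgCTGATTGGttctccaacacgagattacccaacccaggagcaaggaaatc
HLA-DMA: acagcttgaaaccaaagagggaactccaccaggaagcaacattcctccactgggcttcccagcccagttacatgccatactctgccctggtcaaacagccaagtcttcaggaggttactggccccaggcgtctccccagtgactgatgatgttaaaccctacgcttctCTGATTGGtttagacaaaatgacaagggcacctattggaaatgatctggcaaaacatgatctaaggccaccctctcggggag
The match begins 49 bases before the start of HLA-DRB1 and 82 before that of HLA-DMA. A promoter was found for 7 of the 12 genes called higher, and 2 of them hold these letters, as do 3.98% of all promoters. HLA-DMA, part of the loader of class II peptides, was called higher by 0.84, and the call was lost without L1236 or KM-H2 replicate 1. Without HDLM2 its difference was 1.31.

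**Figure D3:**
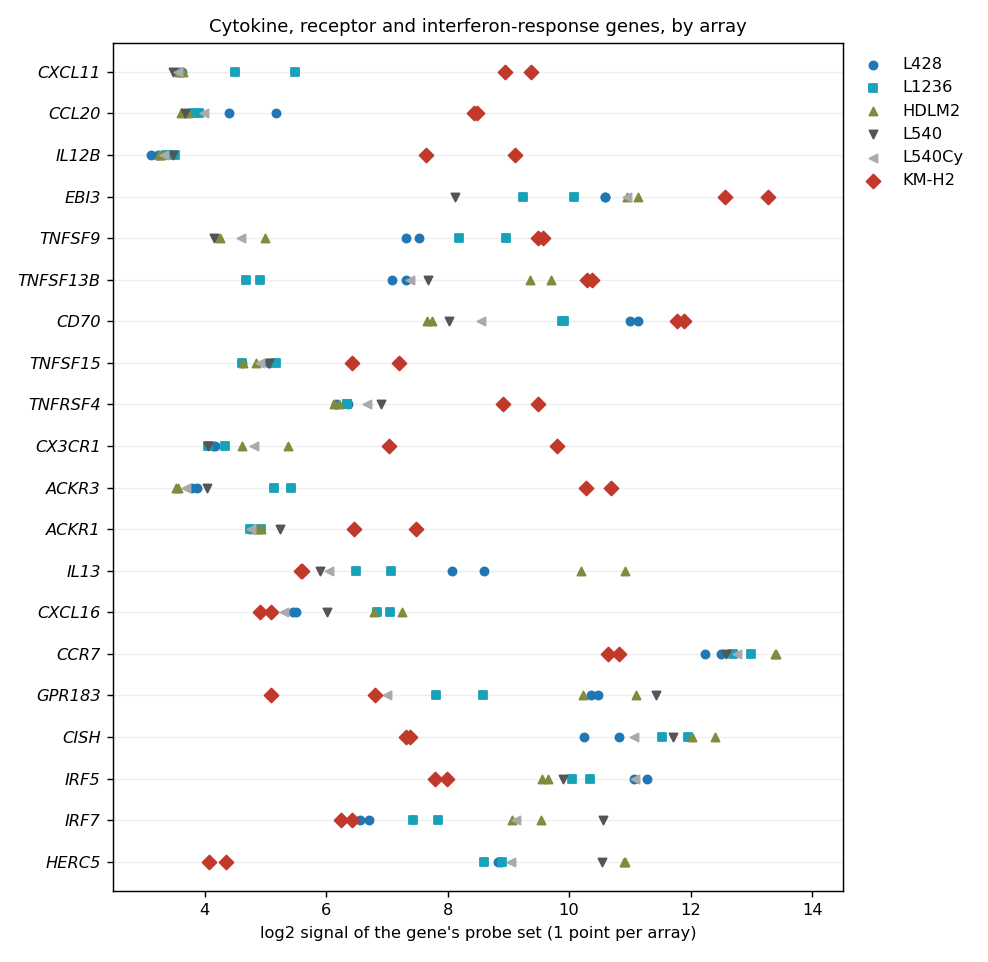
The log2 signal of cytokine, receptor, JAK-STAT and interferon-response genes, with 1 point per array and a symbol for each line. KM-H2 lies at the right for the secreted and surface factors from CXCL11 to ACKR1 and at the left from IL13 to HERC5.

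Of 33 chemokines, 6 were called higher and 5 lower, and 3 stood apart above (9.09% against 5.43% of all genes) and 1 below (3.03% against 3.25%), with 4 below without L540 and L540Cy. CXCL11, a ligand of CXCR3 that draws T cells, read 9.37 and 8.94 against 3.48 to 5.48. CCL20, the ligand of CCR6, read 8.43 and 8.48 against 3.62 to 5.17 (p over lines 0.0483). CCL5 read 12.84 and 12.08, above L428 and L1236 at 11.33 to 11.96, and its rise of 2.12 was 1.38 without HDLM2. CXCL10, another CXCR3 ligand, was called higher by 4.80 but did not stand apart, since L1236 read 11.71 and 12.31 against 11.84 and 12.52 in KM-H2. CXCL16 stood below at 5.09 and 4.91 against 5.30 to 7.25.

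Of 35 interleukins and colony-stimulating factors, 5 were called higher (14.3% against 14.1% of all genes) and 8 lower (22.9% against 13.0%). Standing apart were 3 above (8.57% against 5.43%) and 1 below (2.86% against 3.25%). Without L540 and L540Cy there were 5 above. IL12B, the p40 chain of IL-12 and IL-23, read 9.10 and 7.64 against 3.11 to 3.51, a difference of 5.05 (SE 0.29, adjusted p = 1.11e-06, p over lines 0.00244). EBI3, the beta chain of IL-27 and IL-35, read 13.28 and 12.57 against 8.12 to 11.14. IL16, a T cell attractant, stood apart by 1.21, without a call over the mean of its 3 probe sets or without KM-H2 replicate 1. IL13, a growth factor of several Hodgkin lines, stood below at 5.59 and 5.61 against 5.89 to 10.93, and its difference of -2.31 was -1.43 without HDLM2.

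Of 16 measured ligands of the TNF family, 4 were called higher and all 4 stood apart (25% against 5.43%), and 1 was called lower. TNFSF9, the ligand of 4-1BB, read 9.49 and 9.57 against 4.16 to 8.95, and TNFSF13B, the B cell survival factor BAFF, read 10.38 and 10.29 against 4.68 to 9.70. CD70, the ligand of CD27, read 11.89 and 11.77, above L428 at 11.13 and 11.01. TNFSF15 read 7.20 and 6.42 against 4.61 to 5.18 and was the only one of the 4 called over lines (adjusted p = 0.0182). Of 27 TNF receptors, 7 were called higher and 4 lower (4 and 2 without KM-H2 replicate 1), and 2 stood apart in each direction. With all arrays, 25.9% of these receptors were called higher and 14.8% lower, against 14.1% and 13.0% of all genes. In each direction 7.41% stood apart, against 5.43% above and 3.25% below. TNFRSF4, the costimulator OX40, read 9.50 and 8.92 against 6.13 to 6.90, a rise of 2.82, and of 1.43 over the mean of its 2 probe sets. TNFRSF1A, the main TNF receptor, read 7.49 and 7.22 against 5.05 to 6.58. TNFRSF11A, the receptor RANK, was the other member below besides CD30, at 8.67 and 8.11 against 9.84 to 12.30.

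Among 23 chemokine receptors, 5 were called in each direction (21.7%, against 14.1% of all genes higher and 13.0% lower). In each direction 3 stood apart (13%, against 5.43% above and 3.25% below). Without KM-H2 replicate 2 there were 3 called in each direction, and without KM-H2 replicate 1 there were 3 called lower. Of the scavenging receptors, ACKR3 read 10.28 and 10.69 against 3.53 to 5.42, and ACKR1 read 7.48 and 6.46 against 4.75 to 5.24. CX3CR1, the fractalkine receptor, read 9.80 and 7.03 against 4.06 to 5.38, and its rise of 3.97 was 2.59 without KM-H2 replicate 1. ACKR3 was at 2.41 in place of 6.35 over the mean of its probe sets, and CX3CR1 at 2.19. Those below included 2 receptors that steer lymphocytes within lymph nodes. CCR7 read 10.82 and 10.65 against 12.24 to 13.40, and GPR183 read 5.09 and 6.81 against a median of 10.29 in the other Hodgkin arrays, all of which were higher. CCR4, described with the T cell genes, was the third. Of 41 interleukin and cytokine receptors, 9 were called higher (22% against 14.1%) and 12 lower (29.3% against 13.0%). Standing apart were 2 above (4.88% against 5.43%) and 4 below (9.76% against 3.25%). Without HDLM2 or without L540 and L540Cy 4 stood above, and 7 did against L428 and L1236 alone. IL18RAP rose by 1.66 and IL27RA by 1.62, the latter by 0.98 without L428. IL3RA fell by 2.01, CRLF2, the receptor of TSLP, by 1.97, and IL20RB by 1.16, a call that was lost without L1236.

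Of 22 measured checkpoint and costimulatory ligands, 3 were called higher and 9 lower (40.9% against 13.0%), but 2 stood apart above and 1 below. The median difference was -0.40, and was -0.24 without L1236 and -0.16 without HDLM2. CD274, which encodes PD-L1, read 7.35 and 7.81 in KM-H2, 7.12 and 6.92 in L428 and 9.85 to 12.84 in the others, a fall of 2.43, and of 1.59 without HDLM2. CD47, a signal against phagocytosis, stood below at 10.16 and 10.40 against 10.81 to 12.71. Without L428 there were 4 members below, and 3 without L428 replicate 2 or without L540 and L540Cy. CD276, the ligand B7-H3, stood apart by 1.04, as did CD70.

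NF-kB signalling genes moved both ways. Of 27 subunits and regulators, 7 were called higher (25.9% against 14.1% of all genes) and 8 lower (29.6% against 13.0%). Standing apart were 4 above (14.8% against 5.43%) and 1 below (3.7% against 3.25%). Without KM-H2 replicate 1, 4 were called lower, without KM-H2 replicate 2, 2 stood above, and without L1236, 4 stood below. CYLD, a deubiquitinase that restrains NF-kB, read 5.66 and 5.29 in KM-H2 and 9.77 to 10.56 in the other Hodgkin arrays. Its difference of -4.72 (SE 0.17, adjusted p = 5.31e-08, p over lines 0.00875) was -2.54 over the mean of its 7 probe sets. The inhibitors NFKBIA and TNFAIP3 did not stand apart. NFKBIA read 12.83 ± 0.23 (SD, n = 2) against 11.89 to 13.74 and was not called. TNFAIP3, the deubiquitinase A20, was called lower by 1.70, with L1236 replicate 1 below both KM-H2 arrays, and not without L428 or KM-H2 replicate 1. The activating kinases CHUK and IKBKE rose by 1.22 and 1.16, the adaptor TRAF3 by 1.20 and the subunit RELB by 1.01. The call of RELB (adjusted p = 0.0443) was lost without either array of L428, L1236, KM-H2, HDLM2 or Namalwa, without the lines L428 or L1236 and without L540, and that of CHUK without KM-H2 replicate 2.

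Of 30 genes known as NF-kB targets, 9 were called higher and 5 lower, and 6 stood apart above and 0 below (20% against 5.43%). They were BCL2A1, PLEK, CD83, EBI3, CCL5 and TNFAIP8. BCL2A1, an inhibitor of apoptosis, read 12.61 and 12.48 against a median of 8.35 and a highest value of 11.16. CD83, a marker of mature dendritic cells and activated B cells, read 12.70 ± 0.41 (SD, n = 2) against 8.11 to 11.17. PLEK, a cytoskeletal substrate of protein kinase C, read 10.78 and 9.61 against 6.67 to 7.25 and was called over lines (adjusted p = 0.0121), but not in the fit without KM-H2 replicate 1. TNFAIP8 rose by 1.26.

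Among JAK-STAT genes, 14.8% were called higher and 25.9% lower, against 14.1% and 13.0% of all genes. In each direction 7.41% stood apart, against 5.43% above and 3.25% below. Of 27 measured, 4 were called higher and 7 lower, and 2 stood apart in each direction, with 4 below without KM-H2 replicate 2. CISH, a STAT5-induced inhibitor, read 7.39 and 7.32 against 10.24 to 12.39, a fall of 4.12 (SE 0.20, adjusted p = 3.32e-07, p over lines 0.147). JAK2 read 6.57 and 6.94 against 7.40 to 10.20. JAK3, which serves the common gamma chain receptors, rose by 1.26, and by 0.47 over the mean of its 4 probe sets. SOCS2, a further STAT5-induced inhibitor, went against CISH, at 11.94 and 12.26 against 8.09 to 11.57. Of 17 AP-1 and ATF factors, MAF stood apart above by 2.49 (1.29 over the mean of its 6 probe sets) and BATF3 below.

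Of 47 interferon regulatory factors and interferon-stimulated genes, 5 were called higher and 16 lower (34% against 13.0%), 26 were not called, and 0 stood apart above and 5 below. The median difference was -0.45, and was -0.29 without L1236, -0.25 without HDLM2, -0.27 without L540 and -0.71 without both L540 and L540Cy. The count called lower was 9 without KM-H2 replicate 1, and 3 were called higher without it or without L1236. The count below was 10 without KM-H2 replicate 2 and 9 without L540Cy or without both L540 and L540Cy, and 4 stood above without both. HERC5, the ligase of the ubiquitin-like ISG15, read 4.35 and 4.08 against 8.60 to 10.91, one of the 15 largest falls. IRF5 read 7.80 and 7.99 against 9.56 to 11.28, and IRF7, the master factor of type I interferon production, read 6.42 and 6.25 against 6.56 to 10.56. IRF5 is the first of 15 neighbouring genes on chromosome 7, described at the end, whose median difference was -1.57 and of which 10 stood apart below. SAMD9L fell by 1.75 and IRF2 by 1.17, and IRF2 lost its call against L428 and L1236 alone and without KM-H2 replicate 1, as did MX1 without that array. MX1, an antiviral GTPase, was lower by 1.82 but at the level of L540 and L540Cy (5.15 and 5.56 against 5.38 and 5.17). TRIM22, an antiviral ligase, was called higher by 3.54, with L540 and L540Cy (8.68 and 8.94) at the level of KM-H2 (mean 8.97). None of the members standing apart was called over lines.

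WNT genes stood apart above in 7 of 44 cases (15.9% against 5.43%) and below in 3, with 11 called higher and 6 lower. Without KM-H2 replicate 1, 7 were called higher. The members above were WNT5A, WNT10A, FZD1, FZD5, TCF7L2, LEF1 and AXIN2. WLS, which is not on the list and carries WNT proteins to the surface, read 8.70 and 8.50 against 3.66 to 3.97 (p over lines 0.00209). Among ligands, WNT10A read 9.21 and 9.12 against 5.55 to 6.78, and WNT5A read 11.51 and 11.45, with L540Cy next at 10.07 and HDLM2 lowest at 3.73 and 4.51. The rise of WNT5A, 3.58, was 2.33 without HDLM2. WNT5B fell by 3.40, and L428 (4.85 and 4.82) was as low as KM-H2 (4.75 and 4.80). Among receptors, FZD1 stood apart by 2.45 and FZD5 by 1.32, the latter not called without KM-H2 replicate 2, and FZD6 read 3.58 and 3.44, close to L540 and L540Cy (3.76 and 3.64) and below 7.73 to 10.30 in the other lines. KREMEN1, a receptor of the inhibitor DKK1, fell by 1.51. Among nuclear factors and targets, TCF7L2 rose by 2.02 and was not called without KM-H2 replicate 1. AXIN2, a feedback target of beta-catenin, read 8.08 and 8.94 against 6.11 to 6.61 (p over lines 0.0428), and its rise of 2.14 was 0.56 over the mean of its 4 probe sets. That mean was 1.48 for WNT10A, -1.70 for WNT5B, 1.02 for FZD1, 0.74 for FZD5 and -0.57 for KREMEN1.

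Of 41 TGF-beta and BMP genes, 10 were called higher (24.4% against 14.1% of all genes) and 6 lower (14.6% against 13.0%). Standing apart were 5 above (12.2% against 5.43%) and 2 below (4.88% against 3.25%). Without KM-H2 replicate 1, 6 were called higher, and without HDLM2, 8 stood above. SMAD3 read 8.47 and 7.93 against 5.62 to 7.05, while the partner receptor-activated factor SMAD2 read 9.41 and 9.28 against 10.53 to 10.95. TGFBR2, the receptor chain that binds TGF-beta, read 4.43 and 4.18 against a median of 6.08 in the other Hodgkin arrays, all of which were higher. ACVR2A, an activin receptor, rose by 1.64, and the secreted factors GDF15 and FSTL3 rose by 2.56 and 1.68. TGIF1, a corepressor of SMADs, rose by 2.22, and by 1.47 without L1236. None was called over lines. GDF15 was at 0.98 over the mean of its probe sets and TGFBR2 at -0.92. Of 34 NOTCH genes, NRARP, a feedback target, stood apart above at 9.01 and 8.60 against 6.68 to 7.58, and the ligand JAG1 (-1.78) and coactivator MAML2 (-1.19) below. There were 3 above without KM-H2 replicate 2 and 4 without L1236. JAG1 was at -1.03 without L428, and -0.73 over the mean of its 6 probe sets. MAML2 was not called without HDLM2 or without either KM-H2 array.

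Of 41 ephrins, semaphorins and their receptors, 10 were called higher (24.4% against 14.1%) and 2 lower (4.88% against 13.0%), and 6 stood apart above and 1 below. ROBO1 read 10.67 and 10.55, with L1236 next at 7.47 and 7.80, and its ligand SLIT2 read 8.61 and 7.32 against 4.53 to 5.40 (p over lines 0.00871). PLXNC1 (2.41), EFNA5 (2.22), PLXNA1 (1.87) and EPHB6 (1.87) also stood apart, PLXNA1 at 0.73 over the mean of its 3 probe sets. EPHB1, a receptor of ephrins B, was the member below, at 3.58 and 3.77, close to L540 and L540Cy (4.05 and 3.88) and far from the 10.84 to 12.41 of the others. Of 43 integrins and tetraspanins, 12 were called higher (27.9%) and 3 lower (6.98%), and 4 stood apart above and 0 below, with a median difference of -0.13. The count called lower was 1 without KM-H2 replicate 1 and 5 without either Reh array. ITGB2, the beta chain of the leukocyte integrins, read 10.13 and 9.90 against 4.65 to 5.11 (p over lines 0.00209). ITGA5, a chain of the fibronectin receptor, read 9.30 and 9.09 against 6.52 to 7.13. The tetraspanins CD9 (3.57) and TSPAN15 (1.49) were the others. Over the means of probe sets ITGB2 was at 3.29 in place of 5.18, and CD9 at 1.16. The partner chain ITGAM was not called with its brightest probe set (5.46 and 5.56 against 5.46 to 5.97), and was called higher by 1.96 with its most variable one.

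Of 36 receptor tyrosine kinases, 3 stood apart above (FGFR3, TYRO3 and PTK7) and MST1R below, and 6 stood above without L540 and L540Cy. FGFR3 was dim, at 5.97 and 5.82 against 3.78 to 4.18, and its rise of 1.88 was 0.89 over the mean of its 2 probe sets. Of 35 other adhesion molecules, EMP2 (3.08), JAM3 (2.57) and CADM1 (1.63) stood above and CLDN14 and EMP1 below. CLDN14 read 4.97 and 4.83, with L428 and L1236 at 5.06 to 5.35, so that its difference of -3.03 was -1.58 without HDLM2. Without HDLM2, 5 stood above and 4 below. EMP1 was at -2.50, and at -0.54 over the mean of its 6 probe sets. Of 37 genes of intermediate filaments and the actin cytoskeleton, 5 stood above and 2 below. ACTN1 rose by 3.48, the unconventional myosin MYO10 by 2.99 and the intermediate filament NES by 2.66, the last called over lines (adjusted p = 0.00521). LMNA rose by 1.23 and was not called without L540 and L540Cy. TPM1 read 3.85 and 4.16 against 7.11 to 8.33, and MYO6 fell by 1.43, a call that was lost without KM-H2 replicate 1. Over the means of probe sets MYO10 was at 0.61, NES at 1.38, TPM1 at -1.65 and ANXA1, described next, at -1.29. Of 33 annexins, galectins and S100 proteins, the galectin LGALS2 stood above at 8.73 and 7.01 against 4.91 to 5.23, and ANXA1 (-2.54), S100A2 (-1.04, and -0.64 without L540 and L540Cy) and ANXA11 (10.57 and 10.40 against 10.87 to 12.49) below. Their count below was 6 without L1236 and 1 without L540Cy or L428 replicate 1.

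**Figure D4:**
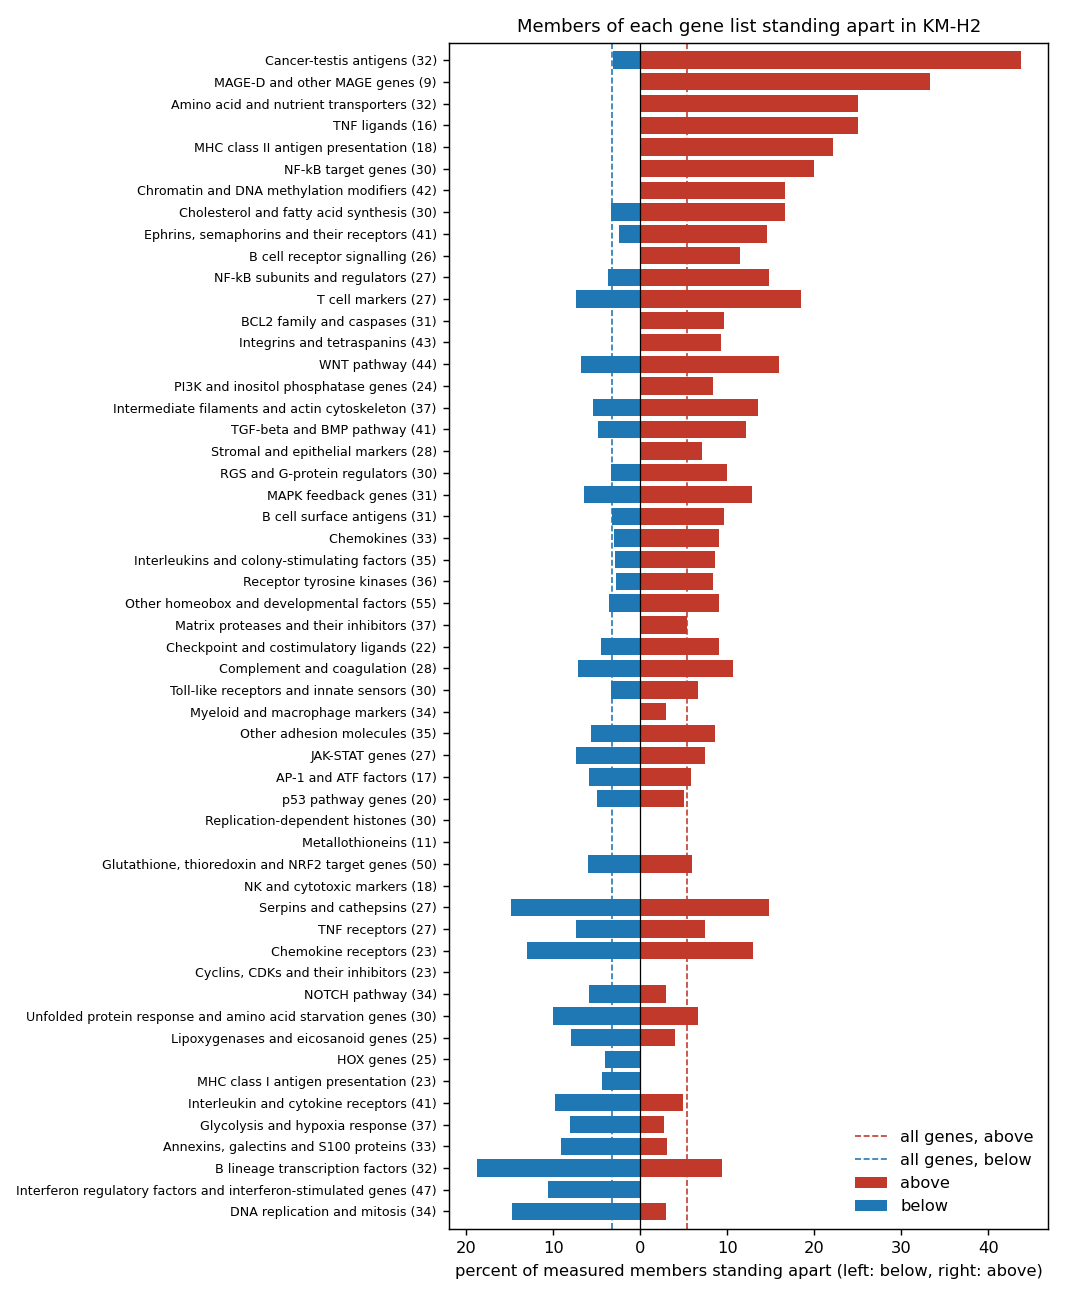
The share of the measured members of each of 54 gene lists that stood apart in KM-H2, in percent, with above to the right, below to the left and the number measured in brackets. Dashed lines give the shares over all genes, 5.43% above and 3.25% below, and the cancer-testis antigens reach 43.8% above.

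Of 32 amino acid and nutrient transporters, 12 were called higher and 6 lower, and 8 stood apart above and 0 below (25% against 5.43%). Without KM-H2 replicate 2 there were 7 called higher and 1 lower, and without KM-H2 replicate 1 there were 0 called lower. Called lower were 3 without L1236 replicate 2 and 2 without L540 and L540Cy. SLC43A3, a purine transporter, read 11.44 and 11.56, with L1236 next at 9.80 and 9.82. SLC7A2, a carrier of arginine and lysine, read 8.24 and 8.29 against 4.72 to 4.94 (p over lines 0.00387). SLC2A13 (2.81), SLC7A6 (2.14), the taurine carrier SLC6A6 (1.84) and the glutamate carrier SLC1A3 (1.82) followed. Over the means of probe sets SLC7A2 was at 1.24, SLC2A13 at 1.63, SLC6A6 at 0.50 and SLC1A3 at 1.01. Of 42 chromatin and DNA methylation modifiers, 14 were called higher (33.3% against 14.1% of all genes) and 3 lower (7.14% against 13.0%). Standing apart were 7 above (16.7% against 5.43%) and 0 below. Called lower were 1 without either KM-H2 array and 6 without L540 and L540Cy. KDM2B, a demethylase that recruits Polycomb complexes to CpG islands, read 12.05 and 11.90 against 8.57 to 9.81. HDAC9 read 8.30 and 8.72 against 4.43 to 6.28. The methylcytosine oxidases TET3 and TET2 rose by 1.66 and 1.28, the DNA methyltransferase DNMT3A by 1.11 and the histone methyltransferase KMT2C by 1.32. With the mean of probe sets HDAC9 was at 0.81 and TET3 at 0.78, 1 of the 42 stood apart above, and DNMT3A was not called there or without L428.

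Of 30 genes of cholesterol and fatty acid synthesis, 9 were called higher and 2 lower, and 5 stood apart above (16.7%) and 1 below. The median difference was 0.12. Against L428 and L1236 alone the list was balanced, with 6 called in each direction, 2 standing apart in each direction and a median of -0.10. Called lower were 5 without HDLM2, and 4 without HDLM2 replicate 1, either Namalwa array, or L540 and L540Cy. The synthesis enzymes HMGCS1 (1.77), SQLE (1.41) and IDI1 (1.21) and the sterol sensor INSIG1 (1.32) stood above together with the cholesterol exporter ABCA1 (1.72). HMGCS1 read 11.41 and 11.53 against 8.26 to 10.58. SQLE was at 0.88 without L540 and L540Cy. MYLIP, the ligase that degrades the LDL receptor, fell by 2.31 and lost its call without KM-H2 replicate 2.

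Of 34 genes of DNA replication and mitosis, 3 were called higher and 11 lower (32.4% against 13.0%), and 1 stood apart above and 5 below, while 20 were not called. The median difference was -0.15. The count called lower was 6 and 7 without KM-H2 replicates 1 and 2 and 7 without L1236. The count called higher ran from 1 without KM-H2 replicate 2 to 7 without L540, and was 6 without L428 or either Reh array. RRM2, a subunit of ribonucleotide reductase, read 11.81 and 11.68 against 12.73 to 13.99. The mitotic kinases BUB1, PLK1 and TTK fell by 1.43, 1.34 and 1.06 and the proliferation antigen MKI67 by 1.01. The replication licensing factor CDT1 went the other way, at 11.30 and 11.12 against 8.25 to 11.03. Of 23 cyclins, CDKs and their inhibitors none stood apart. CDKN2A, which encodes the inhibitors p16 and ARF, was called lower, with a difference of -3.04, at 6.38 and 6.90, with L540 and L540Cy (6.36 and 5.48) as low or lower, and was not called without either KM-H2 array. CDK4 was called higher by 0.96.

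HOX and other developmental factors showed single switches. Of 25 HOX genes, 4 were called higher and 8 lower, 5 of the latter without KM-H2 replicate 2, and 1 stood apart below and 0 above. Without L1236 there were 3 below and without HDLM2 there were 3 above. HOXB7 read 5.18 and 4.79 against 9.80 to 10.57 in every other Hodgkin array (difference -5.21, SE 0.21, adjusted p = 1.08e-07, p over lines 0.00392). HOXC6 was called higher by 3.25 at 10.87 and 11.24, with HDLM2 at 10.38 and 11.52. Of 55 other homeobox and developmental factors, 5 stood above and 2 below, with 4 below without KM-H2 replicate 2. Besides OTX2 they were SIX4 (2.25), MSX1 (2.19), HHEX (1.90) and TBX3 (1.26). TBX3 was at 2.01 over the mean of its 7 probe sets and 5.71 for the most variable one. FOXD1 fell by 3.27, close to L540 and L540Cy, and DLX4 by 1.59.

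Single members of further pathways stood apart. Of 31 genes of the BCL2 family and caspases, HRK, a BH3-only activator of apoptosis, read 8.42 and 8.57 against 4.98 to 5.42 (p over lines 0.00527), and BCL2A1 and CASP2 (1.04) also stood above. Of 20 p53 pathway genes, 7 were called higher (35% against 14.1% of all genes) and 1 lower (5% against 13.0%). The count called higher was 4 without HDLM2 and 12 without L540 and L540Cy. Their median difference was 0.31, and was 0.12 without L1236 and 0.63 without L540 and L540Cy. PHLDA3 stood above by 2.33 and CCNG1 below by 1.14, while 6 stood above without L540 and L540Cy and 4 without L540Cy. Of 31 MAPK feedback genes, ETV5 (2.19), SPRY4 (1.56), RASGRP2 (1.12) and DUSP10 (1.06) stood above. RASGRP2 was not called without KM-H2 replicate 1 and was at 1.75 without replicate 2. DUSP6, the phosphatase of ERK, read 4.26 and 4.49 against 5.09 to 12.19, and RASGRP1 fell by 2.46. Of 30 RGS genes and G-protein regulators, GNA15 rose by 3.82, RGS12 by 1.66 and RGS5 by 1.31, while GNAQ read 4.50 and 4.70 against 5.20 to 11.67. There were 5 above without KM-H2 replicate 1 and 6 without L1236. Of 24 PI3K and inositol phosphatase genes, PIK3R5 (2.64) and PIK3C2B (2.09) stood above. HRK was at 1.66 over the mean of its probe sets, RGS12 at 0.51, GNAQ at -1.97 and PIK3R5 at 1.20.

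In innate and humoral pathways, NLRP7 (3.35, p over lines 0.0129) and TLR7 (1.54) stood above and CLEC2B (-2.48) below among 30 Toll-like receptors and innate sensors. There were 4 above without HDLM2, without L540Cy or without both L540 and L540Cy. Of 28 complement and coagulation genes, 3 stood above and 2 below. PROCR, the receptor of protein C, read 7.14 and 6.64 against 3.31 to 3.78 (p over lines 0.0041), TFPI rose by 2.80 and C5 by 2.69. CFI, a protease that inactivates complement C3b, read 4.03 and 4.09 against 8.02 to 11.98. TFPI2 fell by 2.35, a call that was lost without L428. Of 25 genes of lipoxygenases and eicosanoids, PTGES stood above by 1.93. PLA2G4A, the phospholipase that frees arachidonic acid, read 4.76 and 5.62 against 7.06 to 12.12. ALOX15 fell by 1.86, a call that was lost without L1236, the only other Hodgkin line where it was high (9.66 and 10.13). There were 4 below without KM-H2 replicate 2.

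Metabolic and stress lists held calls in both directions, except the metallothioneins. Of 37 genes of glycolysis and hypoxia response, 7 were called higher and 9 lower, and PFKM stood above by 2.18 and ANKRD37 (-2.52) and BHLHE40 (10.12 and 10.64 against 11.24 to 12.99) below with P4HA2, and 6 stood below without HDLM2 and 3 above without L428. Of 50 glutathione, thioredoxin and NRF2 target genes, 8 were called higher and 12 lower (24% against 13.0%), and NQO1 (1.56), PRDX1 (1.21) and TXNRD1 (1.07) stood above and TXNIP (-2.17), CBR1 (-1.66) and SRXN1 (-1.14) below, and 5 stood above without L1236. CBR1 was not called without HDLM2, and SRXN1 not without KM-H2 replicate 1. Of 30 genes of the unfolded protein response and amino acid starvation, 5 were called higher and 8 lower (26.7%), with a median difference of -0.22. The count called lower was 14 without HDLM2 and 5 without KM-H2 replicate 1, and 2 were called higher without either KM-H2 array. In this list PDIA4 (1.54, p over lines 0.0478) and SDF2L1 (1.05) stood above and XBP1, CHAC1 (-1.52) and EDEM1 (-1.43) below. None of 30 replication-dependent histones and 11 metallothioneins stood apart, and of the latter 0 were called higher and 2 lower, or 4 lower without L428 or without L1236. Of 23 genes of MHC class I presentation, the tapasin relative TAPBPL stood below by 1.60 and none above.

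**Figure D5:**
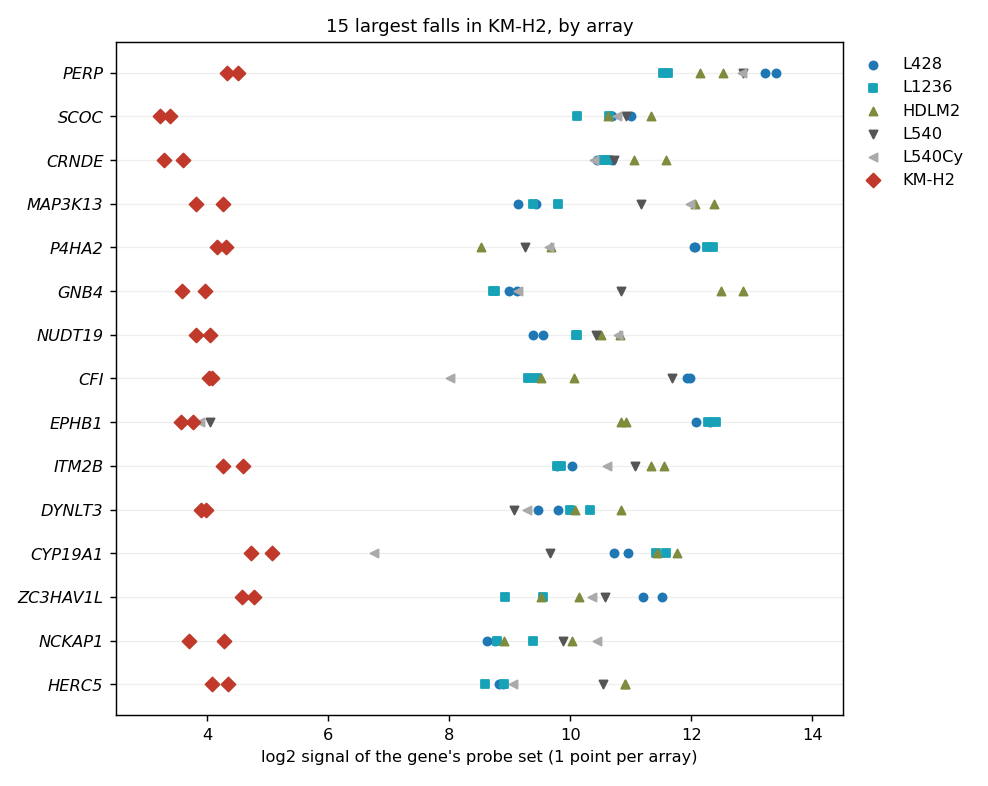
The log2 signal of the 15 genes with the largest falls among genes standing apart, with 1 point per array and a symbol for each line. The KM-H2 points lie from 3.23 to 5.07, and the other Hodgkin arrays mostly lie above 8, except L540 and L540Cy for EPHB1 and L540Cy for CYP19A1.

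The 15 largest falls were of genes near the array's floor in KM-H2 and bright in most other Hodgkin arrays. EPHB1 was nearly as dim in L540 and L540Cy as in KM-H2. PERP, a membrane protein of desmosomes and a p53 target, read 4.33 and 4.52 in KM-H2 against 11.53 to 13.40, a difference of -8.09 (SE 0.21, adjusted p = 9.45e-09, p over lines 0.0248). It was -3.29 over the mean of its 5 probe sets, 3 of which fell by over 1 log2 unit. SCOC, a coiled-coil protein of the Golgi, read 3.23 and 3.39 against 10.12 to 11.34. The long noncoding RNA CRNDE read 3.29 and 3.60 against 10.40 to 11.58. NUDT19, DYNLT3 and NCKAP1 were the other falls called over lines (adjusted p = 0.0232, 0.0284 and 0.0489). DYNLT3, a dynein light chain, read 3.99 and 3.90 against 9.07 to 10.84, and NCKAP1, a part of the WAVE complex that drives actin assembly, read 4.28 and 3.70 against 8.63 to 10.44.

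Enzymes and signalling genes made up much of the rest. P4HA2, a collagen prolyl hydroxylase, read 4.32 and 4.16 against 8.52 to 12.36. CYP19A1, the aromatase that makes oestrogens, read 4.73 and 5.07 against 6.75 to 11.76. MAP3K13, a kinase above JNK, read 3.82 and 4.27 against 9.13 to 12.38, and 2 of its 7 probe sets fell by over 1 log2 unit. GNB4, a G protein beta subunit, read 3.58 and 3.97 against 8.72 to 12.86. ITM2B, a membrane protein, read 4.59 and 4.27 against 9.77 to 11.55, and ZC3HAV1L read 4.77 and 4.57 against 8.93 to 11.51. Over the means of probe sets the falls of MAP3K13, P4HA2, GNB4, CYP19A1, ZC3HAV1L and NCKAP1 were smaller by over 1.5 times, at -1.56, -2.95, -3.42, -1.58, -3.20 and -3.22.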

How the data were processed

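Total RNA of 15 cultures of 9 cell lines was hybridised to Affymetrix U133 Plus 2.0 arrays. The authors deposited RMA signals on the log2 scale for every probe set, per the submitters' processing notes. No version or setting of that software is named in these sources. RMA equalises the arrays, so a shift common to most genes of a line would not show.

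Of 54675 probe sets, 62 control probe sets, 1801 with several gene symbols and 11721 with none were left out, and 41037 matched RefSeq by Entrez identifier. Each of 19735 genes was represented by its brightest probe set, by mean over the 15 arrays, with no filter on dim genes. Linear models (lmFit, then eBayes; limma 3.58.1, R 4.3.3) were fitted to all 15 arrays, with 1 mean per line. Its spread has 6 residual degrees of freedom, from the 6 lines with 2 arrays, which the design text calls biological duplicates, and the spread of a line with a single array was taken from these. The contrast was KM-H2 minus the mean of L428, L1236, HDLM2 and the average of L540 and L540Cy. Tests were two-sided and adjusted by Benjamini-Hochberg over every gene tested. The number of arrays limits the precision. On simulated data for this contrast over 19735 genes, 75 of 100 genes changed by 1 log2 unit and 100 of 100 changed by 2 were called, with 4 false calls. The simulation changed only 200 genes and drew independent noise for each array. In the data 27.1% of genes were called, and arrays with the same number deviated together, so these rates need not hold there.

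The members of 54 gene lists, of which 1649 of 1787 entries were measured, and the rules were chosen with earlier results of these data known. The largest 15 rises and 15 falls among genes standing apart, up to 6 members standing apart per list and direction (else up to 3 called ones), and 12 fixed genes were named. Outside this rule, and chosen after their values were seen, were the cell type markers quoted as low and CCL17, CD22, CD79B, CD274, CTAG2, CXCL10, FSCN1, FUT4, FZD5, HLA-DMA, HLA-DPB1, HLA-DRA, HLA-DRB1, HOXC6, IGKC, IGLV1-44, IRF4, ITGAM, MAGEB1, MAGEB2, MAGEC2, MX1, PAGE4, PASD1, PLAT, SSX3, TRIM22 and WLS. Alternatives changed the replicate (line in place of array), the arrays and lines used, the probe set rule, the filter on dim genes, the normalization, the variance model and the threshold on size.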

Additional observations from a re-analysis of the deposited data

Results flagged for a closer look

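Among 39 genes (the 15 largest rises, the 15 largest falls and the fixed genes), 3 had 1 comparison line far from the other 3 by Dixon's test, which chance gives in about 1 group in 20. For PLS3 the mean of L1236 was 11.16 against 3.56 in the next line. For TMEM132D-AS1 it was 4.85 in L1236 against 4.19 in the next line, both far under the KM-H2 arrays. For CRNDE it was 11.31 in HDLM2 against 10.58 in the next line, both far above the KM-H2 arrays.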

How the results depend on the processing

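With the cell line as the replicate, 233 genes were called higher and 25 lower, and 233 and 24 stood apart above and below. In that fit, standing apart required its own call, whereas the 231 given earlier also required the call of the main fit. Tested against a difference of 1 log2 unit, 610 genes were called higher and 426 lower, and 512 and 261 stood apart above and below. With a filter at the median signal, 648 genes stood apart above. Against L428 and L1236 alone, 1092 stood apart below. Over the fits that left out 1 array or 1 line, the genes called higher ranged from 1791 to 3055 and those called lower from 1438 to 2859, while those standing apart ranged from 1045 to 1213 above and from 621 to 848 below. Both low ends of the called counts came from leaving out a KM-H2 array.

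Of 9126 values of 289 named genes under alternatives, 8714 kept their side of the threshold, 394 lost a call, 12 gained a call and 6 turned. A turn was counted only for a gene called in either fit, so other changes of sign count among the 8714. Only 266 of the 289 genes had a call to lose, and many alternatives left out only 1 array. Of the lost calls, 207 came with the line as the replicate and 101 with the test against 1 log2 unit. HLA-DQA1 turned to -0.35 over the mean of its probe sets and -3.50 with the most variable one. ITGAM, not called, turned to 0.89 and 1.96 under the same choices. FSCN1 turned to -0.72 against L428 and L1236 alone, and PAX5 to 1.17 without L1236. The cause was not tested.

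The correlation of replicate 2 minus replicate 1 between lines was 0.14 to 0.36 for all 10 pairs among L428, L1236, KM-H2, HDLM2 and Reh, so arrays of these lines with the same number deviated together. For the 5 pairs with Namalwa it was -0.07 to 0.06. The labels do not say what the number stands for, and L540 and L540Cy have none. On the 12 numbered arrays the fit with the number as a replicate block called 2857 higher and 2812 lower, and 1166 and 847 stood apart. Without the block the same arrays gave 2681, 2585, 1166 and 848. Among the named genes, the block ended the calls of PRDM1 (-0.98, adjusted p = 0.0518) and S100A2 (-0.64, adjusted p = 0.051), and GZMB was not called on these arrays with or without it. The simulated fit recovered 75 of 100 changes of 1 log2 unit and 100 of 100 changes of 2. Sizes under 1 were not simulated, nor was the shared deviation of arrays with the same number.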

Other observations

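Neighbouring genes moved together in places. Over windows of 15 neighbouring genes with a mean signal of at least 7, a choice made after the values were seen, the lowest median difference was -1.93 on chromosome 3 from LRRC58 to DTX3L, where 10 of the 15 genes stood apart below. On chromosome 4, from TENM3 to UFSP2, the median was -1.35 and 13 of 15 stood apart below. Low windows also lay on chromosome 7 from IRF5 to PODXL (-1.57, 10 below) and on chromosome 16 from SHCBP1 to BRD7 (-1.30, 9 below).

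The highest windows lay on chromosome 7 from ZNF775 to RHEB (1.52, 10 of 15 above) and from LINC01003 to ESYT2 (1.44, 11 above). They also lay on chromosome 16 from UTP4 to DDX19A (1.46, 12 above) and on chromosome 10 from ACADSB to MGMT (1.42, 9 above). Over all genes 5.43% stood apart above and 3.25% below. Those named are the extremes of 8408 windows, many of them overlapping. Of these windows, 68 had a median below -1 log2 and 161 had a median above 1. Windows were not tested, and DNA copy number was not measured here.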
